A study of Mus musculus with 32 samples.

Results

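Hypoxia regulators and targets of the hypoxia-inducible factors (HIFs) were followed as a named group of 10 genes among the 41388 genes counted in mouse chondrocytes. The group is a list of gene names, chosen with earlier results of these data known, and no threshold on a measured value enters it. It holds Hif1a and Epas1, which encode the oxygen-regulated subunits of the HIFs. Egln1 and Egln3 encode prolyl hydroxylases, and Bnip3, Vegfa, Adm, Pdk1, Ndufa4l2 and Ankrd37 are genes known to be induced in low oxygen. All 10 were found in the counts and all 10 passed the filter on low counts in every comparison. RNA sequencing covered 32 libraries of primary sternal chondrocytes of the C57BL/6 strain, isolated from newborn pups without regard to sex and cultured at normal oxygen without passaging. Wild-type (WT) cells received IL-1β (10 ng/mL), the LDHA inhibitor FX11 (40 µM), both or neither for 24 h. Cells of 3 floxed lines (LDHA flox, NAMPT flox and NFKBIZ flox) were infected for 24 h with adenovirus that expresses GFP or with adenovirus that expresses Cre, and were then kept with or without IL-1β for another 24 h. Each of these 16 conditions has 2 libraries. The deletion was made in culture by a virus that can enter any cell type of the dish. No WT cells received the Cre virus, so Cre itself and the loss of the floxed gene cannot be told apart within a line. The sources do not say whether the 2 libraries of a condition came from separate litters or cultures, and p-values then measure only the spread between libraries, which may be technical.

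In well-oxygenated cells the prolyl hydroxylases modify the HIF alpha subunits, which are then bound by the VHL protein and destroyed, so that HIF activity is set mostly by protein stability. When oxygen falls, or when the hydroxylases are inhibited, the alpha subunits pair with ARNT and bind DNA at a core of the letters ACGTG or GCGTG. Egln1 and Egln3 are themselves induced by the HIFs, which makes them both brakes on the pathway and readouts of it. Cartilage has no blood vessels, and growth-plate chondrocytes need HIF-1 to survive and to make matrix. HIF-2, the product of Epas1, is known in cartilage as an activator of matrix-degrading enzymes. The counts report RNA and not protein.

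The 250 bases before the RefSeq transcription start (build GRCm38.p6) were read for 8 of the 10 genes, since Epas1 and Ndufa4l2 were not matched in the table of promoters. The 5 windows below were picked from the genes that later moved under Cre, and each holds at least 1 of the cores. They belong to the hydroxylase Egln3, which rose under Cre in 2 of the lines, to its relative Egln1, and to Bnip3, Pdk1 and Adm. In those lines Egln1, Bnip3 and Pdk1 were called lower with IL-1β and not without it. The same held for Hif1a and Vegfa, which are not shown. Capitals mark every match to ACGTG or GCGTG on either strand, which on the strand shown also reads as CACGT or CACGC.
Egln1, chr8:124949255-124949504, minus strand: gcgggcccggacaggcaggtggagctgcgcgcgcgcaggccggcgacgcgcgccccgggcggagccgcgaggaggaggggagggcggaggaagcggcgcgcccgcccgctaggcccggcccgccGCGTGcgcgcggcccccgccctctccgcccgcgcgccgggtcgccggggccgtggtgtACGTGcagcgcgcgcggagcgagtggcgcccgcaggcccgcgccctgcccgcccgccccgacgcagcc
Egln3, chr12:54203875-54204124, minus strand: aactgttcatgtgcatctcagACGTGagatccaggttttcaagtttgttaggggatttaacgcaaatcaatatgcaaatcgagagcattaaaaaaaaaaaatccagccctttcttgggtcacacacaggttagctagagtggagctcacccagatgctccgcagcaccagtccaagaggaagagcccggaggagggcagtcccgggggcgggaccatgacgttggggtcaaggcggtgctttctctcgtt
Bnip3, chr7:138909507-138909756, minus strand: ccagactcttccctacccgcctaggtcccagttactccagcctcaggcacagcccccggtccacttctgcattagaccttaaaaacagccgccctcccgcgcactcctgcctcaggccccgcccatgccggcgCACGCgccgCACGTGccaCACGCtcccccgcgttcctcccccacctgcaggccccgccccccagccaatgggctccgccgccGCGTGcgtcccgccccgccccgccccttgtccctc
Pdk1, chr2:71872974-71873223, plus strand: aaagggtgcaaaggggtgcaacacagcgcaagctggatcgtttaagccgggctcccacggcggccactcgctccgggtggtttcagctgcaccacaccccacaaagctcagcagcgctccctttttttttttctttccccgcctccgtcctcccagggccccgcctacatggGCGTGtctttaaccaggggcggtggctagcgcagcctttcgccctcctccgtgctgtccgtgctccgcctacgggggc
Adm, chr7:110627407-110627656, plus strand: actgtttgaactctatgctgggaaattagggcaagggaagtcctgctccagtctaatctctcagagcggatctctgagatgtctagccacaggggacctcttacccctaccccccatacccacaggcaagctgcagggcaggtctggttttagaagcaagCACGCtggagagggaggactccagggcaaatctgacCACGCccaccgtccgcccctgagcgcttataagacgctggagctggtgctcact
Bnip3 held 5 matches, of which 2 were to ACGTG and 3 to GCGTG, and the palindrome CACGTG counts once on each strand. Egln1 had 1 match to each core, Adm had 2 to GCGTG, and Egln3 and Pdk1 had 1 match each, to ACGTG and to GCGTG. Of the windows not shown, Hif1a held 3 matches to ACGTG and Ankrd37 held 4 in all. Vegfa and Pdk1 have a pair of listed starts each, and 1 of the 2 windows of each gene had no match. Among all 32851 promoter windows of this length, 16.6% held ACGTG, 28.2% held GCGTG and 38.6% held at least one of them. A match is a string of letters, and binding was not measured.

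Library totals ran from 15830658 to 39959888 reads counted in genes (median 25363482). The sample titles number the libraries in 2 sets. Set 1 holds 12 libraries and set 2 holds 20, and both NFKBIZ flox libraries of a condition are in set 2. Levels are given as CPM, read counts scaled to a common library size, here with edgeR's trimmed-mean (TMM) factors over all 32 libraries. Cre lowered the floxed gene in each line. With IL-1β, Ldha fell by 4.31 ± 0.09 (log2, SE) in LDHA flox, Nampt fell by 3.68 ± 0.11 in NAMPT flox and Nfkbiz fell by 2.93 ± 0.11 in NFKBIZ flox. Without IL-1β the changes were -2.98 ± 0.08, -3.08 ± 0.10 and -0.89 ± 0.12, so Nfkbiz RNA kept 0.538 of its GFP level. Mmp3, a matrix metalloproteinase strongly induced by IL-1β, was between 0.358 and 2.77 CPM in the 6 GFP libraries and between 828 and 1797 CPM in the 6 GFP libraries with IL-1β. There were 2 WT libraries of set 2 that went against their labels in this gene and in Il6, a cytokine that IL-1β also induces. Mmp3 was at 0.790 CPM in the one labelled IL-1β and at 2033 CPM in the one labelled FX11. Il6 had no read in the former and 15.1 CPM in the latter, against 59.0 and 0.0281 CPM in the set 1 libraries with the same labels. Whether the labels of these 2 libraries were exchanged was not tested, and they are used as labelled. All 6 chondrocyte markers looked at (Acan, Col2a1, Sox9, Col9a1, Matn1, Hapln1) were found in every library. Their summed level was 62379 to 78374.5 CPM in the GFP libraries, 22788 to 27265 with GFP and IL-1β, 43446 to 71181 with Cre, and 12341 to 33217 with Cre and IL-1β. Under Cre with IL-1β, Acan had log2 changes of -0.85 ± 0.08 in LDHA flox, -0.82 ± 0.05 in NAMPT flox and 0.37 ± 0.16 in NFKBIZ flox, and Hapln1 had -3.10 ± 0.08, -3.28 ± 0.07 and -0.26 ± 0.17, with neither gene called in NFKBIZ flox. Col2a1 (-0.82 ± 0.06 and -0.73 ± 0.04) and Col9a1 (-1.05 ± 0.09 and -1.10 ± 0.08) also fell in LDHA and NAMPT flox. Matn1 was not called in either of these lines (-0.03 ± 0.13 and 0.00 ± 0.10). Sox9 was at -0.25 ± 0.08 in LDHA flox and, not called, at -0.08 ± 0.08 in NAMPT flox. Macrophage markers summed to 10.6 to 18.0 CPM in the GFP libraries and 18.4 to 41.6 CPM with IL-1β. The macrophage list did not move as one. With IL-1β in the GFP libraries of the 3 lines Cd68 was called higher, with a fold of 2.29. Csf1r was not called (log2 change of 0.18 ± 0.23). By line Csf1r was at 0.46 ± 0.22 in LDHA flox, 0.74 ± 0.27 in NAMPT flox and -0.77 ± 0.36 in NFKBIZ flox, none called. Endothelial markers summed to 2.04 to 3.26 CPM with GFP and 1.36 to 12.3 CPM with Cre. They summed to 2.29 to 5.72 CPM with GFP and IL-1β and 3.91 to 25.1 CPM with Cre and IL-1β. The endothelial list did not move as one. Under Cre with IL-1β Kdr rose in LDHA flox (3.27 ± 0.19) and NAMPT flox (3.45 ± 0.15). Cdh5 was at 0.88 ± 0.47 and 1.43 ± 0.44 and Pecam1 at -0.79 ± 0.44 and -1.74 ± 0.36, both called only in NAMPT flox. Muscle markers went from 70.3 to 96.1 CPM with GFP to 10.9 to 34.1 CPM with GFP and IL-1β. They did not move as one either. With IL-1β in the GFP libraries of the 3 lines Tnnt3 fell by 2.57 ± 0.08 and Acta1 by 0.46 ± 0.17. Myl1, not called, was at 0.51 ± 0.23. Fibroblast collagens and Pdgfra were high in all groups, at 905 to 5630 CPM in GFP and 705 to 4202 CPM with IL-1β. In the same comparison Col1a1 (-0.45 ± 0.07) and Col1a2 (-0.51 ± 0.05) fell and Pdgfra rose (1.08 ± 0.05). Col3a1 was not called (-0.07 ± 0.06). No marker of these lists was at 0 in all libraries of a group. The part of these cells in the results was not tested, and in bulk samples fewer cells of a type and less RNA per cell cannot be told apart.

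The plot of all 24 floxed libraries shows each gene by line and treatment.

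**Figure D1:**
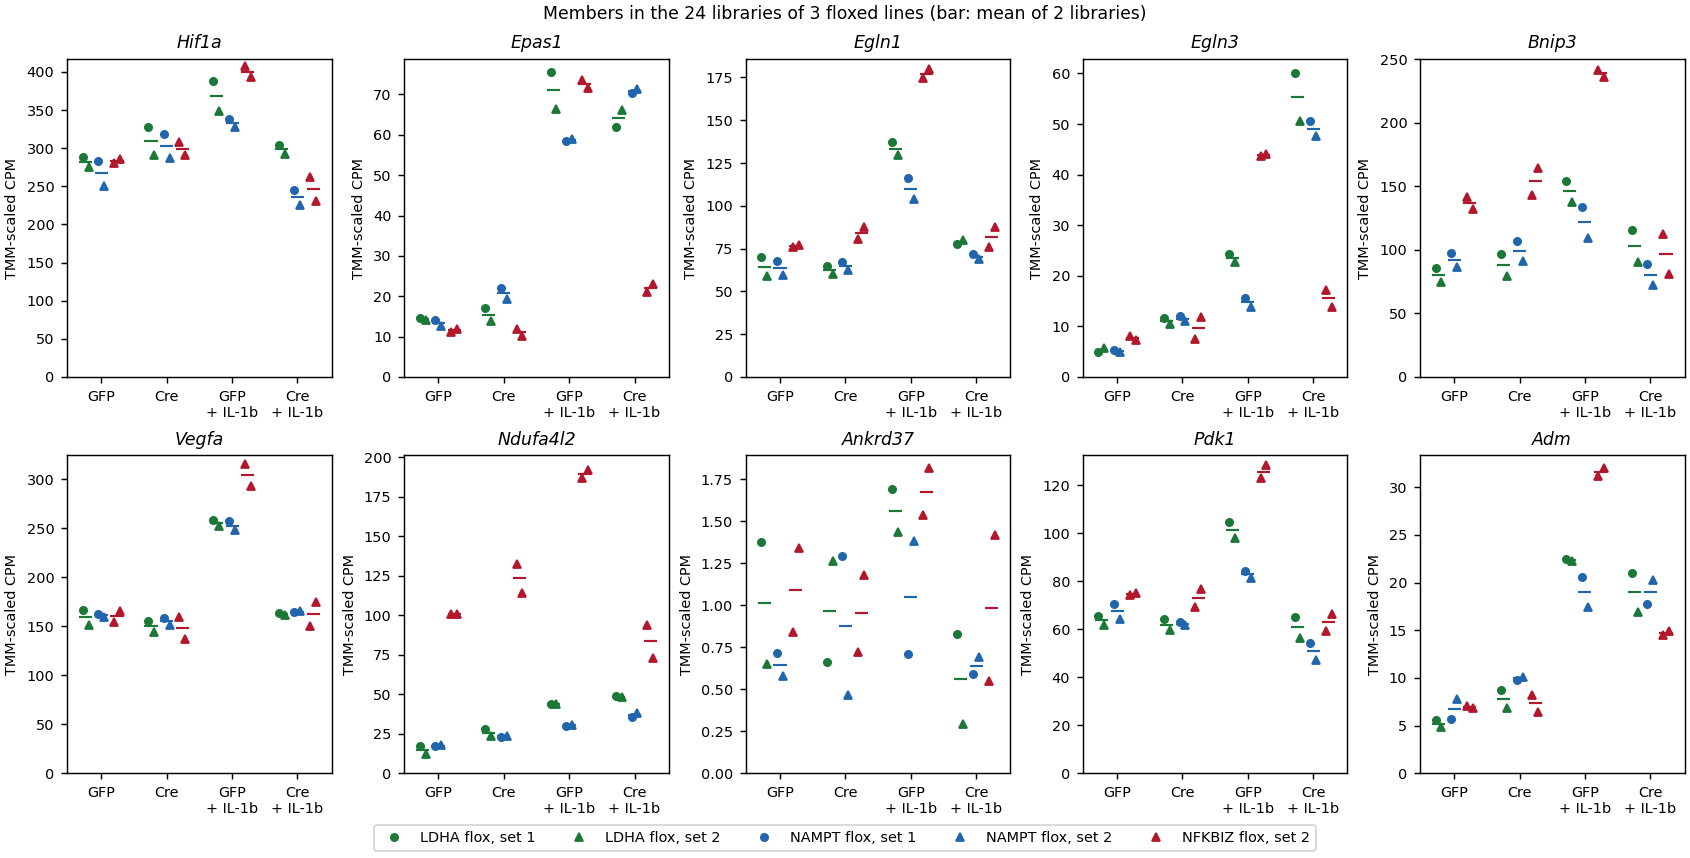
TMM-scaled CPM (linear axes starting at 0) of the 10 genes in the 24 libraries of the LDHA flox (green), NAMPT flox (blue) and NFKBIZ flox (red) lines, with circles for library set 1, triangles for set 2 and a bar for the mean of 2 libraries. Epas1, Egln3 and Adm rise most in the GFP libraries given IL-1β, and in Cre libraries given IL-1β the red points of Epas1 and Egln3 fall away from the green and blue ones.

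Levels can be compared between genes only per length, and on that scale (CPM per kilobase of exon) the 10 genes spanned a wide range in the 6 GFP libraries. Hif1a had the highest median at 47.8 (range 42.4 to 49.0), followed by Bnip3 at 40.6 and Vegfa at 37.6, and the ranges of these neighbours overlapped. Egln1 at 19.6 and Ndufa4l2 at 18.4 came next, also with overlapping ranges. Pdk1 had 8.74, Adm 3.90, Epas1 2.51, Egln3 2.06 and Ankrd37 0.555. The Epas1 and Egln3 ranges overlapped, and the other neighbours from Ndufa4l2 down were separate. Hif1a RNA was thus far above Epas1 RNA in unstimulated cells. With IL-1β the order changed. Bnip3 (64.5), Hif1a (62.5), Vegfa (60.1), Ndufa4l2 (45.7) and Egln1 (38.0) each overlapped the next in that order, as did Adm (13.8), Pdk1 (13.0), Epas1 (13.0) and Egln3 (8.83) among themselves, and Ankrd37 (1.06) was last and separate. Ndufa4l2 differed by line. Its 6 GFP libraries ran from 12.3 to 101 CPM, and both NFKBIZ flox libraries were at 101 CPM while the other 4 were at 17.8 CPM or less. In untreated WT cells Ndufa4l2 was 23.4 CPM in set 1 and 108 CPM in set 2. Ankrd37 rested on 6 to 65 reads per library and the other 9 genes on 93 or more.

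The first comparison asked what IL-1β did in cells with the floxed genes intact, in the 6 GFP libraries with IL-1β against the 6 without, with line and library set in the model. All 10 genes were called higher, at an edgeR quasi-likelihood p, adjusted by Benjamini-Hochberg over 14283 genes, of 0.05 or less. Of all genes tested, 56.2% were called, with 28.0% of all genes higher and 28.3% lower, so being called is common in this comparison. The median log2 fold change was 0.92 over the 10 genes and -0.01 over all genes. In 7 of the 10 genes every library with IL-1β lay above every library without it, against 9.58% of all genes tested. Since the 10 were chosen with earlier results of these data known, this contrast with all genes is a description and not an independent test.

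Among the regulators the alpha subunits differed in size of change. Hif1a was 250.2, 282 and 289 CPM (lowest, median and highest) without IL-1β and 328, 368 and 408 CPM with it. Epas1 was 11.1, 13.4 and 14.7 CPM without and 58.4, 69.1 and 75.5 CPM with IL-1β. Neither gene's groups overlapped. Hif1a rose by 0.44 ± 0.04 on the log2 scale (adjusted p = 7.65e-08), a fold of 1.35, and Epas1 by 2.39 ± 0.07 (adjusted p = 3.56e-14), a fold of 5.24.

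Both prolyl hydroxylases rose. Egln1, the main oxygen sensor in most tissues, was 58.8, 68.9 and 77.2 CPM without and 104, 133 and 180 CPM with IL-1β. Egln3, which is strongly inducible by hypoxia, was 4.90, 5.49 and 8.19 CPM without and 13.9, 23.5 and 44.1 CPM with it. The groups were separate for both. The log2 fold changes were 1.06 ± 0.05 for Egln1 (adjusted p = 4.71e-11) and 2.13 ± 0.12 for Egln3 (adjusted p = 1.25e-10). In the spread of Egln3 with IL-1β the lines lay apart, with NAMPT flox at 15.6 and 13.9 CPM, LDHA flox at 24.3 and 22.8 CPM and NFKBIZ flox at 43.7 and 44.1 CPM. A difference in the IL-1β response between lines was not tested.

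Of the secreted targets, Adm, the vasodilator peptide adrenomedullin, was 4.88, 6.31 and 7.79 CPM without and 17.5, 22.3 and 31.96 CPM with IL-1β, and rose by 1.97 ± 0.11 (log2). Vegfa, the main blood vessel growth factor, went from 151, 161 and 167 CPM to 248, 258 and 315 CPM and rose by 0.79 ± 0.05. Neither overlapped. Adjusted p was 8.08e-11 for Adm and 4.94e-10 for Vegfa.

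The mitochondrial targets rose by less than Adm. Pdk1, a mitochondrial kinase that inhibits pyruvate dehydrogenase, was 61.8, 68.0 and 75.2 CPM without and 81.4, 101 and 128 CPM with IL-1β, a log2 rise of 0.61 ± 0.06 (adjusted p = 1.1e-07). Bnip3, a receptor for removal of mitochondria, was 74.9, 92.0 and 142 CPM and then 109, 146 and 242 CPM, a rise of 0.73 ± 0.06 (adjusted p = 2.31e-08). Ndufa4l2, a mitochondrial protein that lowers respiration in hypoxia, was 12.3, 17.7 and 101 CPM and then 30.0, 43.9 and 192 CPM, a rise of 1.11 ± 0.10 (adjusted p = 4.69e-08). The groups of Bnip3 and Ndufa4l2 overlapped across lines, and within each line both libraries with IL-1β were above both without. Ankrd37, a small ankyrin-repeat protein, was 0.579, 0.779 and 1.37 CPM and then 0.712, 1.49 and 1.82 CPM, with a rise of 0.65 ± 0.24 (adjusted p = 0.0299) that was called in 7 of the 12 fits that leave out 1 library. It was lost, with log2 values down to 0.51, without the set 1 GFP + IL-1β or set 2 GFP library of LDHA flox, the set 2 GFP + IL-1β library of NAMPT flox, or the first GFP or second GFP + IL-1β library of NFKBIZ flox.

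Within a single line, with 2 libraries against 2, 9 of the 10 genes were called higher in each of LDHA flox (27.9% of all genes called, 14.5% higher and 13.3% lower), NAMPT flox (35.0%, 17.7% and 17.3%) and NFKBIZ flox (26.8%, 15.2% and 11.7%). Ankrd37 was the one not called, at 0.63 ± 0.53, 0.69 ± 0.58 and 0.63 ± 0.49 (log2). Epas1 rose by 2.33 ± 0.11, 2.18 ± 0.09 and 2.67 ± 0.12 in the 3 lines, and Adm by 2.12 ± 0.15, 1.58 ± 0.16 and 2.19 ± 0.14. Hif1a rose by 0.41 ± 0.08, 0.38 ± 0.07 and 0.52 ± 0.10. Bnip3 in NAMPT flox, at 0.46 ± 0.11, was not called without the set 1 library with IL-1β (0.33) or the set 2 library without it (0.40). The IL-1β difference also had the same sign within each library set for the 9 genes other than Ankrd37. It lay between 0.25 (Hif1a) and 2.33 (Epas1) in set 1 and between 0.33 (Pdk1) and 2.60 (Epas1) in set 2, as log2 of CPM with 0.5 added. When all 32 libraries shared one model, so that the WT libraries entered the estimate of spread, 1, 0 and 3 of the 10 genes were called in LDHA, NAMPT and NFKBIZ flox, and with the 24 floxed libraries in one model 9 were called in each. Over all genes the 32-library model called 1415, 2191 and 1982 in the 3 lines, in place of 4425, 5642 and 4120.

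**Figure D2:**
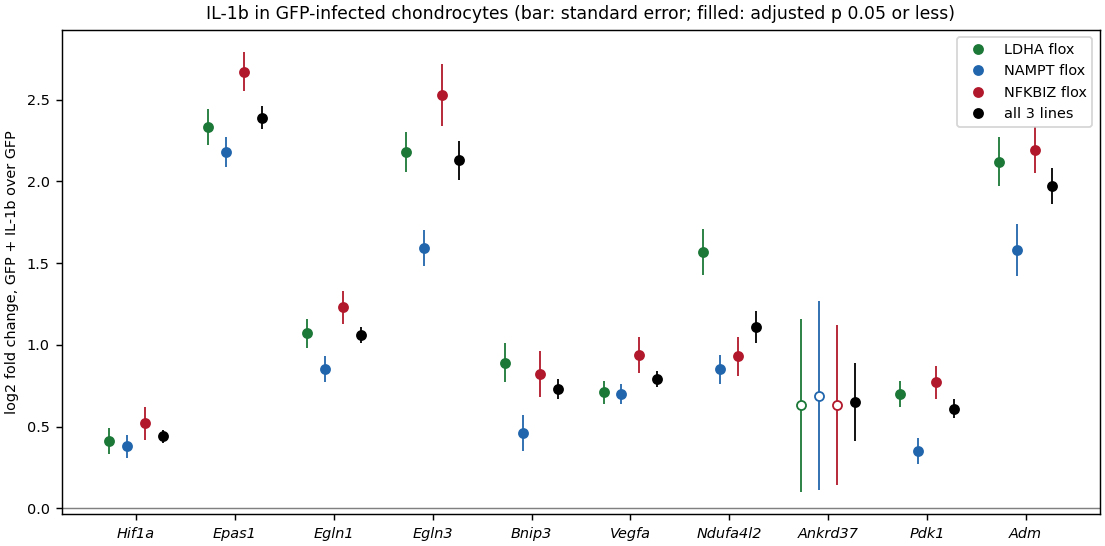
Log2 fold change of GFP libraries with IL-1β over GFP libraries without it for the 10 genes, in LDHA flox (green), NAMPT flox (blue), NFKBIZ flox (red) and all 3 lines together (black), with standard errors as bars and filled points where the adjusted p was 0.05 or less. Every filled point lies above 0, and only the single-line values of Ankrd37 are open.

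Other genes of the pathway were taken from 3 lists, where 28.0% of all genes tested were higher with IL-1β and 28.3% lower. Of the oxygen-sensing machinery outside the 10, 10 genes were tested with IL-1β, and 3 were higher, 4 lower and 3 not called, with a median log2 change of -0.08. Arnt2, a partner subunit, rose by 1.28 ± 0.10, and Cited2, which competes with HIF for its coactivator, rose by 0.54 ± 0.04. Cul2, the scaffold of the VHL ubiquitin ligase, fell by 0.27 ± 0.05. Of 27 further hypoxia-induced targets outside glycolysis, 18 were higher and 4 lower, with a median of 0.50. Car9, a carbonic anhydrase, rose by 2.89 ± 0.12, Lox, which crosslinks collagen, by 1.60 ± 0.11, and Angptl4, an inhibitor of lipoprotein lipase, by 1.39 ± 0.11. Of 19 hypoxia-induced glycolytic genes, 17 were higher and none lower, with a median of 0.60. The lactate exporter Slc16a3 rose by 1.80 ± 0.06, and Hk1 and Pkm, which encode the enzymes of the first and last steps of glycolysis, rose by 0.92 ± 0.05 and 0.90 ± 0.04.

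The next comparisons asked what Cre did to the group in each floxed line, first without IL-1β. In LDHA flox 2 of the 10 genes were called, both higher, where 5.52% of 15880 genes were called (3.43% higher and 2.09% lower). Egln3 was 4.91 and 5.70 CPM with GFP and 11.6 and 10.5 CPM with Cre, a log2 rise of 1.06 ± 0.12 (adjusted p = 0.00108). Ndufa4l2 went from 17.5 and 12.3 CPM to 28.0 and 23.5 CPM, a rise of 0.77 ± 0.14 (adjusted p = 0.0133) that was not called without the set 1 Cre library (0.66). Adm had a change of 0.57 ± 0.16 that missed the threshold (adjusted p = 0.0682) and was called with the library set as a replicate block (0.57, adjusted p = 0.00968), which made 3 calls. Over all genes the block raised the count from 877 to 1995. Beside Adm, the other 7 genes lay between -0.13 (Ankrd37) and 0.13 (Bnip3).

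In NAMPT flox 4 of the 10 were called higher and none lower, where 14.4% of 16136 genes were called (8.30% higher and 6.07% lower). Egln3 was 5.27 and 4.90 CPM with GFP and 12.1 and 11.0 CPM with Cre, and rose by 1.18 ± 0.11 (adjusted p = 4.92e-05). Epas1 was 14.2 and 12.6 CPM with GFP and 22.1 and 19.4 CPM with Cre, and rose by 0.62 ± 0.09 (adjusted p = 0.000937). The 2 groups were separate in both genes. Ndufa4l2 rose by 0.42 ± 0.09 (adjusted p = 0.0091) and Adm by 0.59 ± 0.16 (adjusted p = 0.0358). Their calls did not hold without the set 1 GFP library (0.39 and 0.35) or without the set 2 Cre library (0.38 and 0.55), and that of Adm also not without the set 1 Cre library (0.62). Hif1a, at 0.18 ± 0.07, and the other 5 genes were not called. With the library set as a replicate block Hif1a was called too (0.18, adjusted p = 0.000607), which made 5 calls, and the count over all genes went from 2319 to 4311.

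In NFKBIZ flox none of the 10 was called by edgeR, DESeq2 or limma. Nfkbiz itself was still at 0.538 of its GFP level in this comparison. Of 15356 genes 0.260% were called there (0.111% higher and 0.150% lower), and at an unadjusted p of 0.05 one of the 10 was, Ndufa4l2 at 0.29 ± 0.12. Egln3 was 8.19 and 7.22 CPM with GFP and 7.51 and 11.8 CPM with Cre, so the groups overlapped, and its change was 0.32 ± 0.20. Epas1 was 11.1 and 12.0 CPM with GFP and 12.0 and 10.3 CPM with Cre.

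With IL-1β the Cre libraries differed from the GFP libraries in many more genes. In LDHA flox 34.0% of all genes were called (16.9% higher and 17.0% lower), and of the 10 genes 5 were lower and 1 higher, with a median log2 change of -0.37 against -0.02 over all genes. Pdk1 was 105 and 98.1 CPM with GFP and 65.1 and 56.4 CPM with Cre, and fell by 0.71 ± 0.08 (adjusted p = 9.25e-05). Egln1 went from 137 and 130 CPM to 77.6 and 80.3 CPM and fell by 0.72 ± 0.09 (adjusted p = 0.000162). Vegfa went from 259 and 253 CPM to 164 and 161 CPM and fell by 0.62 ± 0.07 (adjusted p = 0.000127).
Egln3 moved the other way, from 24.3 and 22.8 CPM to 60.1 and 50.7 CPM, and rose by 1.27 ± 0.10 (adjusted p = 1.21e-05). Hif1a fell by 0.27 ± 0.08 (adjusted p = 0.0213) and Bnip3 by 0.47 ± 0.12 (adjusted p = 0.0129). Both stayed below 0 whichever library was left out (-0.32 to -0.24 and -0.65 to -0.34), but their calls did not always hold. Hif1a was not called without the set 1 GFP + IL-1β library (-0.24) or without either Cre + IL-1β library (-0.29 each). Bnip3 was not called without the set 1 GFP + IL-1β library (-0.44) or the set 2 Cre + IL-1β library (-0.34). Epas1 was 75.5 and 66.5 CPM with GFP and 62.0 and 66.2 CPM with Cre, a change of -0.11 ± 0.10 that was not called. Ankrd37, at -1.39 ± 0.56, was not called, and was called with the library set as a replicate block (-1.40, adjusted p = 0.0348), without a filter on low counts and at an unadjusted p.

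In NAMPT flox with IL-1β 48.4% of all genes were called (25.0% higher and 23.4% lower), and of the 10 genes 5 were lower and 3 higher, with a median of -0.55 against -0.03 over all genes. The 5 lower genes had the same names as in LDHA flox. Pdk1 fell by 0.70 ± 0.08 from 84.2 and 81.4 CPM to 54.5 and 47.3 CPM. Egln1 fell by 0.64 ± 0.08 from 117 and 104 CPM to 71.6 and 69.0 CPM, and Hif1a by 0.50 ± 0.07 from 338 and 328 CPM to 245 and 225 CPM. Vegfa fell by 0.61 ± 0.06 and Bnip3 by 0.59 ± 0.11, and adjusted p for these 5 genes was between 5.76e-06 (Vegfa) and 0.00134 (Bnip3). Egln3 rose by 1.74 ± 0.10 (adjusted p = 1.62e-07), from 15.6 and 13.9 CPM to 50.7 and 47.5 CPM. Epas1 was 58.4 and 59.0 CPM with GFP and 70.4 and 71.4 CPM with Cre, a rise of 0.28 ± 0.08 (adjusted p = 0.0159). Ndufa4l2 rose by 0.28 ± 0.09 (adjusted p = 0.0204), which DESeq2 did not call. Without the set 1 GFP + IL-1β library neither Epas1 (0.21) nor Ndufa4l2 (0.20) was called, nor without the set 2 Cre + IL-1β library (0.25 and 0.21). Epas1 was also not called without the set 1 Cre + IL-1β library (0.27).

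In NFKBIZ flox with IL-1β 9 of the 10 genes were lower and none higher, where 17.4% of all genes were called (8.16% higher and 9.20% lower). The median was -1.12, against -0.01 over all genes. All 9 kept their call when any single library of the comparison was left out. Epas1 fell most, by 1.73 ± 0.11 (adjusted p = 4.75e-07), from 73.6 and 71.6 CPM to 21.1 and 23.0 CPM. Egln3 fell by 1.51 ± 0.18 (adjusted p = 8.18e-05), from 43.7 and 44.1 CPM to 17.2 and 13.8 CPM. The Cre libraries were well below the GFP libraries in both, and still above the 2 GFP libraries without IL-1β (11.1 and 12.0 CPM for Epas1, 8.19 and 7.22 CPM for Egln3).

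Bnip3 went from 242 and 236 CPM to 113 and 81.3 CPM and fell by 1.31 ± 0.14 (adjusted p = 3.33e-05). Ndufa4l2 fell by 1.19 ± 0.12 (adjusted p = 2.76e-05), from 187 and 192 CPM to 94.1 and 73.2 CPM. For both of these mitochondrial genes, the Cre libraries with IL-1β lay below even the GFP libraries without it (142 and 132 CPM for Bnip3, 101 CPM in both for Ndufa4l2), a pair of groups that was not tested. Egln1 fell by 1.12 ± 0.10, Adm by 1.11 ± 0.14, Pdk1 by 1.01 ± 0.10, Vegfa by 0.92 ± 0.11 and Hif1a by 0.71 ± 0.10, with adjusted p between 6.77e-06 (Egln1) and 0.000344 (Hif1a). Ankrd37, at -0.78 ± 0.50, was not called. The IL-1β comparisons and these Cre comparisons share the GFP libraries with IL-1β, so a gene that was high there is pushed up in one and down in the other. With all 32 libraries in one model none of the 10 genes was called for Cre with IL-1β in any of the lines, and with the 24 floxed libraries 6, 7 and 9 were called in LDHA, NAMPT and NFKBIZ flox. Over all genes the 32-library model called 2822, 4934 and 851 in these lines, in place of 5392, 7808 and 2666. The model of the 24 floxed libraries raised the count in NFKBIZ flox to 4366. Mmp3 also fell under Cre with IL-1β, with log2 changes of -2.37 ± 0.11, -2.48 ± 0.09 and -2.69 ± 0.12 in LDHA, NAMPT and NFKBIZ flox. So did the cytokine Il6, at -2.02 ± 0.26, -2.85 ± 0.13 and -5.36 ± 0.25, and Nfkbiz itself, at -1.30 ± 0.10 in LDHA flox and -1.64 ± 0.08 in NAMPT flox. The part of a weaker IL-1β response under Cre in these results was not tested.

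**Figure D3:**
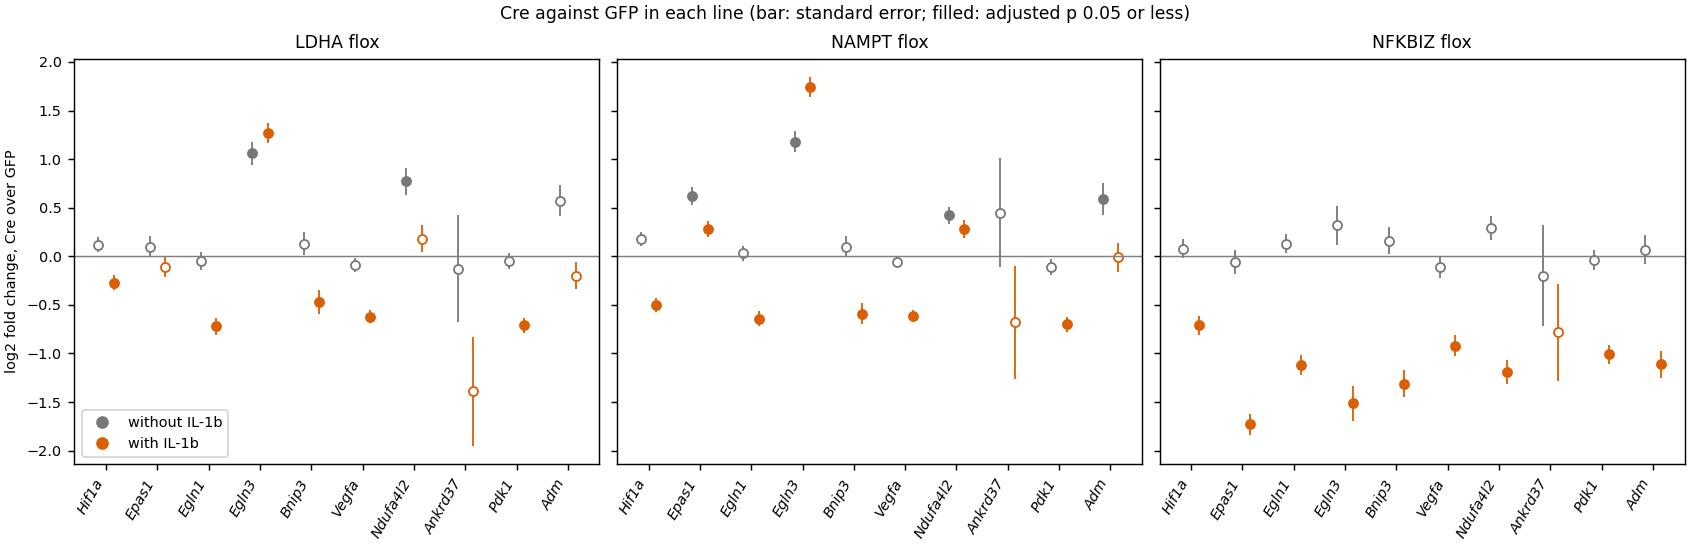
Log2 fold change of Cre over GFP for the 10 genes without IL-1β (grey) and with IL-1β (orange) in the LDHA flox, NAMPT flox and NFKBIZ flox lines, with standard errors as bars and filled points where the adjusted p was 0.05 or less. With IL-1β Egln3 is at 1.27 and 1.74 in the first and second lines and at -1.51 in the third, while Egln1, Vegfa and Pdk1 are below 0 in all 3.

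Under Cre with IL-1β the lists beyond the 10 genes were set beside the share of all genes called. That share was 17.0% lower and 16.9% higher in LDHA flox, 23.4% and 25.0% in NAMPT flox, and 9.20% and 8.16% in NFKBIZ flox. In NFKBIZ flox 23 of 28 further targets outside glycolysis and 17 of 19 glycolytic genes were lower and none was higher, with medians of -0.72 and -0.71. Car9 fell by 2.65 ± 0.11, and the heme-degrading enzyme Hmox1 by 1.23 ± 0.11 and Higd1a, a mitochondrial respiration protein, by 1.18 ± 0.15. Aldoc, an aldolase, Pfkfb3, which makes an activator of glycolysis, and Slc16a3 fell by 1.41 ± 0.14, 1.28 ± 0.09 and 1.25 ± 0.09. In the oxygen-sensing list Vhl, the ligase subunit that binds hydroxylated HIF, was the only non-member of 11 called, and fell by 0.86 ± 0.11. LDHA flox had 10 of 29 targets lower and 4 higher, and 7 of 19 glycolytic genes lower and 2 higher. NAMPT flox had 11 of 29 lower and 9 higher, and 8 of 19 lower and 4 higher. In those 2 lines the growth factor genes Pdgfb (4.97 ± 0.21 and 5.09 ± 0.28) and Pgf (3.82 ± 0.28 and 4.32 ± 0.32) rose and Lox fell (-1.76 ± 0.07 and -2.16 ± 0.06). Pfkfb4, a relative of Pfkfb3, rose by 2.42 ± 0.14 and 2.95 ± 0.12. Cited2 fell by 1.38 ± 0.08 in LDHA flox and 1.87 ± 0.07 in NAMPT flox. The glycolytic list holds Ldha, the gene deleted in LDHA flox.

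Without IL-1β the lists moved less. Of all genes tested, 3.43% were higher and 2.09% lower in LDHA flox, 8.30% and 6.07% in NAMPT flox, and 0.111% and 0.150% in NFKBIZ flox. In LDHA flox 3 of 29 targets were higher and 3 lower, with Pdgfb at 1.91 ± 0.25, Car9 at 0.66 ± 0.13 and Angptl4 at -0.60 ± 0.11, and 3 of 19 glycolytic genes were higher and Ldha lower. NAMPT flox had 9 of 29 targets higher and 6 lower, and 6 of 19 glycolytic genes higher, among them Pfkfb4 at 0.88 ± 0.12. Arnt2 rose in both lines, by 0.97 ± 0.21 and 0.91 ± 0.15. In NFKBIZ flox no gene of the 3 lists was called by edgeR, and at an unadjusted p of 0.05 there were 5 of 28 targets, 1 of 19 glycolytic genes and none of 11 oxygen-sensing genes.

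Whether the Cre effect depended on IL-1β was tested as an interaction within each line, where a negative value means a lower Cre effect with IL-1β than without it. In NFKBIZ flox 9 of the 10 genes had a negative interaction, where 5.19% of all genes were called (1.69% positive and 3.50% negative). The values ran from -0.79 ± 0.14 for Hif1a (adjusted p = 0.00564) to -1.83 ± 0.27 for Egln3 (adjusted p = 0.00122), with Epas1 at -1.67 ± 0.17 (adjusted p = 8.22e-05). Vegfa, at -0.81 ± 0.16, was not called without the first GFP library or the first GFP library with IL-1β (-0.75 in both cases), and Hif1a not without the latter (-0.76). In NAMPT flox 5 genes had a negative interaction and Egln3 a positive one, where 22.0% of genes were called (12.0% positive and 9.98% negative). Hif1a had -0.68 ± 0.10, Egln1 -0.67 ± 0.11, Bnip3 -0.70 ± 0.16, Vegfa -0.56 ± 0.08 and Pdk1 -0.58 ± 0.11. The Egln3 value of 0.56 ± 0.15 (adjusted p = 0.0199) was lost in 4 of 8 fits that leave out 1 library (0.48 to 0.51, without the set 1 GFP, set 1 Cre + IL-1β, set 2 GFP + IL-1β or set 2 Cre library). In LDHA flox 6 genes had a negative interaction, where 11.5% were called (5.89% positive and 5.60% negative). Egln1 had -0.67 ± 0.12, Vegfa -0.53 ± 0.10 and Pdk1 -0.66 ± 0.11, and these 3 were called whichever library was left out. Hif1a (-0.39 ± 0.11) was lost in all 8 such fits, Adm (-0.77 ± 0.21) in 6 and Bnip3 (-0.60 ± 0.17) in 5. With the library set as a replicate block Ndufa4l2 was also called in LDHA flox (-0.59, adjusted p = 0.00892), and Epas1 (-0.34, adjusted p = 0.0139) and Adm (-0.62, adjusted p = 0.00833) in NAMPT flox. With all 32 libraries in one model none of the 10 genes kept an interaction call in any line. Over all genes that model called 312, 748 and 40 interactions in LDHA, NAMPT and NFKBIZ flox, in place of 1826, 3552 and 797. Egln1, Vegfa and Pdk1 were thus called for a lower Cre effect with IL-1β in each of the 3 lines fitted alone.

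The Cre effect, averaged over libraries with and without IL-1β, was compared between lines in a model of the 24 floxed libraries with library set as a term. LDHA flox and NAMPT flox differed in 1 of the 10 genes, where 0.705% of 16727 genes were called (0.233% higher and 0.472% lower). Epas1 was lower by 0.45 ± 0.10 in LDHA flox (adjusted p = 0.0264), and that call was lost in 12 of 16 fits that leave out 1 of the libraries, with values from -0.52 to -0.40. LDHA flox lay above NFKBIZ flox in 6 of the 10 genes, where 21.8% were called (10.1% higher and 11.7% lower), and below it in none. The difference was 1.74 ± 0.14 for Egln3 (adjusted p = 3.85e-09), 0.91 ± 0.12 for Ndufa4l2, 0.87 ± 0.10 for Epas1, 0.70 ± 0.15 for Adm, 0.38 ± 0.10 for Bnip3 and 0.23 ± 0.07 for Hif1a. NAMPT flox lay above NFKBIZ flox in 5 genes, where 31.3% were called (15.1% higher and 16.2% lower). These were Egln3 at 2.03 ± 0.15 (adjusted p = 2.17e-10), Epas1 at 1.32 ± 0.10, Adm at 0.79 ± 0.15, Ndufa4l2 at 0.78 ± 0.12 and Bnip3 at 0.30 ± 0.10, which was lost in 3 of 16 such fits (0.29 without the set 1 NAMPT flox GFP or the set 2 NAMPT flox GFP + IL-1β library, 0.25 without the first NFKBIZ flox Cre library). Egln1, Vegfa, Pdk1 and Ankrd37 were not called in any of the 3 line comparisons, with Egln1 at 0.09 ± 0.08 and 0.17 ± 0.08 against NFKBIZ flox. In the libraries without IL-1β alone, none of the 10 genes differed between LDHA and NFKBIZ flox and 2 did between NAMPT and NFKBIZ flox. Both NFKBIZ flox libraries of a condition are in set 2, and without the set term Hif1a (0.23) and Bnip3 (0.39 and 0.30) were no longer called. The 2 comparisons with NFKBIZ flox share its libraries. The chondrocyte markers also differed from NFKBIZ flox, in the direction opposite to the called genes of the 10. All 6 had a lower Cre effect in LDHA flox than in NFKBIZ flox, from -0.27 ± 0.10 for Matn1 to -1.83 ± 0.12 for Hapln1, and in NAMPT flox, from -0.28 ± 0.09 for Sox9 to -2.09 ± 0.12 for Hapln1, all called. Their part in the differences was not tested.

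Averaged over all 3 lines, Cre was called for 8 of the 10 genes, 6 lower and 2 higher, where 50.1% of all genes were called (26.3% lower and 23.8% higher). Pdk1 fell by 0.43 ± 0.03 (adjusted p = 1.81e-11), Egln1 by 0.40 ± 0.03 and Vegfa by 0.40 ± 0.03, and Bnip3 fell by 0.33 ± 0.04, Hif1a by 0.18 ± 0.03 and Epas1 by 0.15 ± 0.04. Egln3 rose by 0.68 ± 0.06 on average, although the lines moved in opposite directions with IL-1β. Ndufa4l2, at 0.13 ± 0.05 (adjusted p = 0.033), was lost in 11 of 24 fits that leave out 1 library and was -0.26 in the libraries with IL-1β alone. In the libraries without IL-1β alone the Hif1a, Epas1, Egln1 and Bnip3 averages were above 0 (0.14, 0.24, 0.05 and 0.15).

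In WT cells the question was whether IL-1β and the LDHA inhibitor FX11 moved the group. No gene at all was called by edgeR in any of the 4 comparisons (0% of 15461), so none of the 10 was either. At an unadjusted p of 0.05 there were 153 genes for IL-1β, 68 for FX11, 102 for FX11 in the presence of IL-1β and 861 for the combination against untreated, none of them among the 10. DESeq2 called 6, 2, 1 and 153 genes and limma called 0 in each. With all 32 libraries in one edgeR model 4 of the 10 genes were called higher for the combination against untreated, which were Epas1 (3.12, adjusted p = 0.0315), Egln3 (2.40, 0.0376), Adm (2.25, 0.0262) and Vegfa (0.97, 0.025). Over all genes that model called 1561 for the combination, in place of 0. The libraries of a condition lay far apart, most of all where one of them went against its label. Epas1 was 190 CPM in set 1 and 15.7 CPM in set 2 in the libraries labelled IL-1β, and 10.8 and 177 CPM in those labelled FX11. Egln3 was 56.7 and 15.6 CPM, and 3.94 and 55.7 CPM. The log2 change of Epas1 with IL-1β was 2.82 ± 1.48, while the SEs of the same 2 against 2 comparison in LDHA, NAMPT and NFKBIZ flox were 0.11, 0.09 and 0.12. Without those 2 libraries none of the 10 was called either, and 1, 0, 0 and 1 genes were called in all.

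Set 1 alone, with 1 library per treatment and no replicate check, gave these ratios. All 10 genes were above untreated in the IL-1β library, by 1.54 times for Hif1a, 18.1 times for Epas1, 11.9 times for Ndufa4l2, 10.1 times for Egln3 and 7.70 times for Adm. The median ratio of the 10 was 3.32, and 49.4% of 13952 genes were above 1. The FX11 library was below untreated in 8 of 10 genes, with a median ratio of 0.785, where 50% of genes were below. Ndufa4l2 had 0.442 of the untreated level, Bnip3 0.542 and Egln1 0.570, while Epas1 (1.03) and Adm (1.19) were above 1. The library with IL-1β and FX11 was below the IL-1β library in all 10 genes, at 0.644 (Egln3) to 0.875 (Ankrd37) of its level, where 50.9% of genes were below, and it was still above untreated in all 10. Ldha itself was 727 CPM untreated, 497 CPM with FX11, 2190 CPM with IL-1β and 1698 CPM with both. In set 2, all 10 genes were above untreated in the library labelled FX11 (median ratio 2.64), where 48.7% of genes were above, and 8 of 10 in the library labelled IL-1β (median ratio 1.25), where 51.6% were. The set 2 library with IL-1β and FX11 was above the library labelled IL-1β in 9 of 10 genes (median ratio 1.25), where 49.3% of genes were above, which is the opposite of set 1. These set 2 ratios rest on the 2 libraries that went against their labels, so no direction for FX11 was drawn from them.

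**Figure D4:**
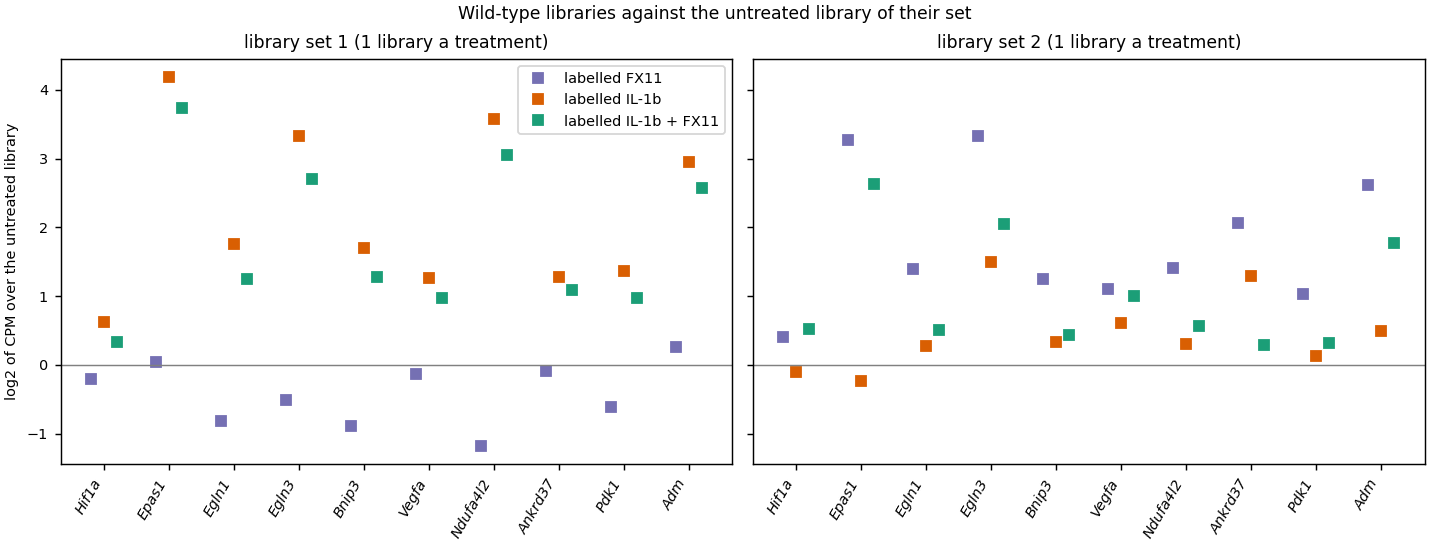
Log2 of CPM over the untreated library of the same set for the 10 genes in the WT libraries labelled FX11 (purple), IL-1β (orange) and IL-1β + FX11 (green), for library set 1 and library set 2, with 1 library per point and no error bar. In set 1 the orange and green points are above 0 for all 10 genes and the purple points are below 0 for 8, while in set 2 the library labelled FX11 is above 0 for all 10.

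The genes whose pattern over the 16 condition means was most like each of the 10 were found among 17094 genes by Pearson's r of log2 CPM, as a description. For Epas1 they were the metal transporter Slc11a2 (r = 0.979) and the vitamin C transporter Slc23a2 (0.978), and for Adm Car13 (0.967) and Slc11a2 (0.964). Bnip3 had Mif and the glycolytic enzyme Pgk1 (0.908 each), Pdk1 had Ak4 (0.928) and Gbe1 (0.922), and Ndufa4l2 had Ccng2 (0.948) and Pygl (0.943). Egln1 had Pgm1 (0.943) and 1700001L05Rik (0.941), and Vegfa had the lactate transporter Slc16a1 (0.942) and Egln1 (0.934). Egln3 had Abcc3 (0.954) and H2-T23 (0.942), Hif1a had Rgcc (0.943) and Tmem170b (0.921), and Ankrd37 had Tbl2 (0.869). The 16 means share lines, library sets and the IL-1β treatment. Hif1a and Egln3 were the least alike of the pairs of Hif1a with another of the 10, at 0.28, whereas Epas1 and Egln3 had 0.86.

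The 10 genes lie on GRCm38 as annotated by GENCODE M21, all protein coding, and their counts come from exons. Hif1a (12: 73901375 to 73947530) and Egln3 (12: 54178981 to 54203860) share chromosome 12. Egln1 (124908596 to 124949254) and Ankrd37 (45996902 to 45999867) are on chromosome 8. Bnip3 (138890836 to 138909519) and Adm (110627661 to 110629820) are on chromosome 7, and Epas1 (86753907 to 86833410) and Vegfa (46016993 to 46032377) on chromosome 17. Pdk1 is on chromosome 2 (71873224 to 71903858) and Ndufa4l2 on chromosome 10 (127514939 to 127517152). Exons on the opposite strand overlap Hif1a (Gm15283), Ndufa4l2 (Shmt2) and Ankrd37 (Ufsp2 and Lrp2bp). Since no source states whether strand was used in counting, reads of those pairs may not be told apart.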

How the data were processed

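Members and gene lists were chosen with earlier results of these data known. The authors aligned reads of ribosomal-RNA-depleted libraries to GRCm38 (Ensembl release 76) with STAR and counted unique, unambiguous reads per gene with featureCounts. The submitters' processing notes give STAR 2.0.4b and featureCounts 1.45, and the paper's methods give other versions. The deposited tables hold raw read counts per gene, which were used here, and the deposited CPM and RPKM columns (counts scaled by the authors by library size and, for RPKM, by gene length) were not. Libraries were grouped by their labels. With R 4.3.3, edgeR 4.0.16 (quasi-likelihood, TMM, two-sided, Benjamini-Hochberg over all genes tested) was run on genes with over 1 CPM in at least 1 library (groups of 2) or 5 libraries (6 against 6), leaving out 355 ribosomal RNA genes. Comparisons within a line used its 8 libraries, and the others had line and set as terms. Called means an adjusted p of 0.05 or less. The test was run on simulated counts with known changes, drawn independently for each library of the floxed designs. These had no library set effect and no WT libraries, so they do not check p-values where libraries deviate together. At the smallest total 3 counts, the floor, were 0.1895 CPM, and intervals of counting error are not given. Named genes were the 10 members, the deleted genes, Mmp3, Il6, from each list up to 3 other called genes with the largest change per comparison, and the 2 genes most like each member, of which 1 is not reported here. The symbols of 40340 gene IDs came from GENCODE M21. Alternatives were DESeq2 1.42.0, limma 3.58.1 (voomWithQualityWeights), RLE, other filters, unadjusted p, the replicate block, other sets of libraries and each library left out.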

Additional observations from a re-analysis of the deposited data

Results flagged for a closer look

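Cre effects differed between 2 lines by a test of the difference itself, an edgeR contrast in the model of the 24 floxed libraries. Values are differences of log2 fold changes. Between LDHA flox and NAMPT flox the difference was -0.45 for Epas1. For LDHA flox minus NFKBIZ flox it was 0.23 for Hif1a, 0.87 for Epas1, 1.74 for Egln3, 0.38 for Bnip3, 0.91 for Ndufa4l2 and 0.70 for Adm. For NAMPT flox minus NFKBIZ flox it was 1.32 for Epas1, 2.03 for Egln3, 0.30 for Bnip3, 0.78 for Ndufa4l2 and 0.79 for Adm. Several did not hold throughout. Epas1 between LDHA flox and NAMPT flox was lost in 12 of 16 fits that leave out 1 library, and Hif1a and both Bnip3 differences were lost without the library set term. In the libraries without IL-1β alone none of the 10 genes differed between LDHA flox and NFKBIZ flox, and Bnip3 changed sign in both comparisons with NFKBIZ flox (-0.03 and -0.06). The line and the library set are partly confounded, since NFKBIZ flox has libraries of set 2 only. No condition has over 2 libraries, so none could be searched for a library far from its group.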

How the results depend on the processing

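Over all settings 3229 of 3448 values for single genes kept their side of the threshold and, if called in the main fit, their direction. Under DESeq2 206 of 208 did, under limma 208 of 210 and under filterByExpr all 210. The direction of values not called in either fit did not enter this count. With all 32 libraries in one model the number of the 10 genes called was 1 for IL-1β, 0 for Cre without IL-1β, 0 for Cre with IL-1β and 0 for the interaction in LDHA flox, 0, 0, 0 and 0 in NAMPT flox, and 3, 0, 0 and 0 in NFKBIZ flox, and it was 4 for IL-1β + FX11 against untreated in WT. With the 24 floxed libraries in one model, an alternative chosen after seeing the data, it was 9, 3, 6 and 7 in LDHA flox, 9, 4, 7 and 7 in NAMPT flox and 9, 0, 9 and 9 in NFKBIZ flox. Over all genes this model called 1463 in place of 877 for Cre without IL-1β in LDHA flox. In NFKBIZ flox it called 4366 in place of 2666 for Cre with IL-1β and 1860 in place of 797 for the interaction. An unadjusted p called 1 gene for Cre without IL-1β in NFKBIZ flox. LDHA minus NAMPT had 0 calls without the set term and 0 in the libraries without or with IL-1β alone. In the libraries without IL-1β alone, also chosen afterwards, the number was 0 for LDHA minus NFKBIZ, 2 for NAMPT minus NFKBIZ and 5 for the Cre average, and values changed sign for Bnip3 in both line differences (-0.03 and -0.06) and for Hif1a (0.14), Epas1 (0.24), Egln1 (0.05) and Bnip3 (0.15) in the Cre average. With IL-1β alone the average of Ndufa4l2 changed sign to -0.26. The causes were not tested. Of all genes, Cre without IL-1β in NFKBIZ flox called 40, against 71 with DESeq2, 170 without a filter, 910 at an unadjusted p and 256 with the 24 floxed libraries together, and LDHA minus NAMPT called 118, against 302 with DESeq2, 811 with limma, 438 without a filter and 38 without the set term. In the libraries without IL-1β alone LDHA minus NFKBIZ called 317 in place of 3647 genes, NAMPT minus NFKBIZ 843 in place of 5238 and the Cre average 3179 in place of 8379. With all 32 libraries the counts for Cre with IL-1β were 2822, 4934 and 851 genes in LDHA, NAMPT and NFKBIZ flox, in place of 5392, 7808 and 2666.

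Leaving out each library in turn gave 1 to 2 calls for Cre without IL-1β in LDHA flox, 3 to 5 for its interaction, 2 to 4 for Cre without IL-1β in NAMPT flox and 0 to 1 for LDHA minus NAMPT, where a lone library is assumed to vary like the other groups. With the library set as a replicate block the number of genes called was 9 for IL-1β, 3 for Cre without IL-1β, 7 with it and 7 for the interaction in LDHA flox, 9, 5, 8 and 8 in NAMPT flox, and 10 for IL-1β in the 3 lines. Over all genes the block moved the count for Cre without IL-1β from 877 to 1995 in LDHA flox and from 2319 to 4311 in NAMPT flox, and that of the interaction from 1826 to 3374 and from 3552 to 5648. Libraries with the same set number deviated together in LDHA flox (r 0.43 to 0.69) and NAMPT flox (0.49 to 0.65) and not throughout WT (-0.29 to 0.72), with 2 libraries a condition, and the labels do not say what a set is. No block could be fitted in NFKBIZ flox, whose replicate numbers are only names. Each group has 2 libraries, and Ankrd37 rests on 6 to 65 reads per library.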
